A study of Mus musculus with 14 samples.

Results

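Of 21755 protein-coding promoters, 6341 (29.1%) carried neither H3K4me3 nor H3K27me3 in control mouse embryonic stem cells (mESC). A promoter was the window of 1 kb either side of the annotated gene start (GENCODE, mm10, chromosomes 1 to 19 and X). It belonged to the class when no island of the control H3K4me3 list and none of the control H3K27me3 list touched the window. The members were therefore selected on measured values, and their missing control calls of these marks are no finding. The remaining promoters carried H3K27me3 without H3K4me3 (3005), H3K4me3 without H3K27me3 (7755) or both marks (4654). The question addressed here is which of the unmarked promoters gained Smarca4, H3K4me3, H3K27ac, H3K27me3 or Ezh2 upon Smarcb1 knockdown (kd), and which gene families they hold.

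All libraries came from 81K1 cells, a single clone of the mESC line OG2 in which doxycycline induces an shRNA against Smarcb1. Control cells carried the same construct and stayed untreated, whereas kd cells received 1 µg/ml doxycycline daily and were fixed after 72 h, so that doxycycline and the loss of Smarcb1 cannot be told apart. For each of the 5 antibodies there was 1 control and 1 kd library, and hence neither a spread between replicates nor a test between conditions. Shares of called promoters are given below with their 95% Wilson interval, and this interval describes the counting error alone. The peak lists do not give the depth of each library, for which the methods state an approximate aim only for Ezh2, H3K4me3 and H3K27ac, and a promoter without a call may still hold signal under the threshold. Between control and kd, the lists on these chromosomes went from 78960 to 72126 Smarca4 peaks, from 25873 to 33128 H3K4me3 islands, from 38737 to 50700 H3K27ac islands, from 22900 to 18311 H3K27me3 islands and from 6706 to 5364 Ezh2 peaks. With the control and kd lists shortened to equal length, the class held 6542 promoters and gained H3K4me3 at 153 members in place of the 210 described below, H3K27ac at 149 in place of 205, H3K27me3 at 308 in place of 277 and Smarca4 at 175 in place of 149. The promoters of the pluripotency genes Pou5f1, Sox2 and Nanog were called for H3K4me3, H3K27ac and Smarca4 in both conditions. None of the 48 genes the study names that have a promoter here was a member. The lists hold no RNA, so the knockdown itself could not be checked in them.

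H3K4me3 marks the starts of active and poised genes and is placed mainly at CpG-rich promoters. H3K27me3 is written by the Polycomb complex PRC2 through its enzyme Ezh2 and covers silent developmental genes, while H3K27ac accompanies active promoters and enhancers. Smarca4 (Brg1) is the ATPase of the BAF chromatin remodelling complex, of which Smarcb1 is a core subunit. Promoters without either methylation mark in mESC are typically CpG-poor and belong to genes used in few adult tissues, such as the receptors of the nose, the proteins of skin and hair and the secreted proteins of liver and glands.

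The sequences of the members showed this poverty in CpG and are given first because the gains described below differed along it. The following stretches are the 250 bases upstream of the RefSeq start (GRCm38.p6), 5′ to 3′ on the strand of the gene, with each CpG in capitals. Ifna11, Ifna6 and Ifna4, 3 alpha interferon genes that gained H3K27me3, are shown beside Ifna2, an alpha interferon gene that did not. Dnah7c gained the Smarca4 peak with the highest score among members with a gene name of their own, the MACS2 score being a multiple of −log10 q. Gsto2, Ttc38 and Mfsd9 are members that gained 3 antibodies.
Ifna11 (chr4:88819669-88819918, plus strand): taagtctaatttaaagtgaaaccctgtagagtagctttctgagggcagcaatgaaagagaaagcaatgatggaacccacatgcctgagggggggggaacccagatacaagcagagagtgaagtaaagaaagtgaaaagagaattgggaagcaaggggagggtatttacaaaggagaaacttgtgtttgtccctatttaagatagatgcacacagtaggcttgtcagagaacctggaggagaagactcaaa
Ifna6 (chr4:88827026-88827275, plus strand): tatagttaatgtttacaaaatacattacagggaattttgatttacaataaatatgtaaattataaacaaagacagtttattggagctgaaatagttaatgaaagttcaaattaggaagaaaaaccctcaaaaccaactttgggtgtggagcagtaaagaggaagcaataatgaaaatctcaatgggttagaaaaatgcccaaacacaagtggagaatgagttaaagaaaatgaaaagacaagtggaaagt
Ifna4 (chr4:88841566-88841815, plus strand): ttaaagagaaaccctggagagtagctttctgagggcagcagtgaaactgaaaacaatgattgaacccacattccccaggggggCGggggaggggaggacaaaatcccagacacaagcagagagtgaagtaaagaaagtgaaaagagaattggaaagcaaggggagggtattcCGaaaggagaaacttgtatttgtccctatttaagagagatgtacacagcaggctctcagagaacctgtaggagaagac
Ifna2 (chr4:88683780-88684029, minus strand): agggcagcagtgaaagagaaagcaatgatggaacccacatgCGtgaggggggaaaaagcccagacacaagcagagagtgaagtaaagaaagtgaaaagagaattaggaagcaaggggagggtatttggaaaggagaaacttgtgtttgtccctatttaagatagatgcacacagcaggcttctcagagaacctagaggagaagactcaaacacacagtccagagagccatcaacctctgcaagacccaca
Dnah7c (chr1:46425268-46425517, plus strand): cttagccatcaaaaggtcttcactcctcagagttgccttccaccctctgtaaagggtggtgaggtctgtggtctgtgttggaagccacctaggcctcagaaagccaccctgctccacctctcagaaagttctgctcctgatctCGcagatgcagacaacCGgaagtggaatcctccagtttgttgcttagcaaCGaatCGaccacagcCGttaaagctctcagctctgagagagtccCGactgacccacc
Gsto2 (chr19:47865295-47865544, plus strand): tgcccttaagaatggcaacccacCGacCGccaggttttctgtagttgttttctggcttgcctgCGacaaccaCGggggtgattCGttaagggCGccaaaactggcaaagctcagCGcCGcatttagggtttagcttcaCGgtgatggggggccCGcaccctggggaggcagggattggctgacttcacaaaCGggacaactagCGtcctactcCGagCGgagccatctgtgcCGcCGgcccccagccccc
Ttc38 (chr15:85832054-85832303, plus strand): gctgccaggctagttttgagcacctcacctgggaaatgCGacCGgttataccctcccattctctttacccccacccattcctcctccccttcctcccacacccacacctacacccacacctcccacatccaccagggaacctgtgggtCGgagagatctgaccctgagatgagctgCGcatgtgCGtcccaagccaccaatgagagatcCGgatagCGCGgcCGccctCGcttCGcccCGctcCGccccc
Mfsd9 (chr1:40790658-40790907, minus strand): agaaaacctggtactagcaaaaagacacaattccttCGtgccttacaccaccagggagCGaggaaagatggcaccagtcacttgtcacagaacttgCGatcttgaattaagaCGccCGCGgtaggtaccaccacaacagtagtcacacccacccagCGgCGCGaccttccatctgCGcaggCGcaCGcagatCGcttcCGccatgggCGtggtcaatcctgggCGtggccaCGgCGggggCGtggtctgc

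The Ifna11 and Ifna6 stretches held 0 CpG, Ifna2 held 1 and Ifna4 held 2. Dnah7c held 6, Ttc38 13, Gsto2 16 and Mfsd9 19. Over the 1 kb centred on the start, the ratio of observed to expected CpG had a median of 0.160 in the class (quartiles 0.1004 and 0.254). It was 0.316 at promoters with H3K27me3 alone, 0.756 with H3K4me3 alone and 0.722 with both marks. GC content had a median of 44.0% in the class and 54.9% over all promoters. A ratio of at least 0.4 was found at 400 members (6.31%) but at 60.4% of all promoters.

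Short words were counted on both strands of the 300 bases from 250 before to 50 after each start, read from the mm10 genome. Matches of different words can overlap. TATAAA, the core of the TATA box, occurred at 24.5% of members, against 12.7% of all promoters and 7.77% of promoters outside the class. GGGCGG, the core of the GC box, showed the opposite order, with 8.01% of members, 43.4% of all promoters and 57.9% of those outside the class. CCAAT was found at 41.2% of members and 38.9% of all promoters. CACGTG, the E-box palindrome, was found at 3.36% of members and 7.81% of all promoters. AANNGAAA, the core of the sites that interferon regulatory factors bind, was present at 34.4% of members and 23.4% of all promoters, and at 14 of the 14 alpha interferon members. These are matches of letters and say nothing on binding.

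Most of the class was empty in every list. No region of any antibody was called in either condition at 5187 members (81.8%), and 732 (11.5%) gained at least 1 antibody in kd. Of these, 630 gained 1 antibody, 94 gained 2, 8 gained 3 and 0 gained 4 or more. H3K27me3 was gained at 277 members (4.37%, 3.89 to 4.90%), against 3.72% of all promoters without H3K27me3 in control. H3K4me3 was gained at 210 members (3.31%, 2.90 to 3.78%), against 10.8% of all promoters without it. H3K27ac was gained at 205 of the 6101 members uncalled in control (3.36%, 2.94 to 3.84%), against 20.2% of all such promoters. Smarca4 was gained at 149 of 5826 members (2.56%, 2.18 to 3.0%), against 10.1%. Ezh2 was gained at 1 of 6331 members (0.0158%, 0.00279 to 0.0894%), against 6.28%. The members thus lay below the share of all promoters for Smarca4, H3K4me3, H3K27ac and Ezh2, whereas for H3K27me3 the interval lay above it. At promoters with H3K4me3 alone, H3K27me3 was gained at 3.19% (2.82 to 3.60%), below the interval of the class. Promoters can share an island, and they are not replicates of a condition.

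**Figure D1:**
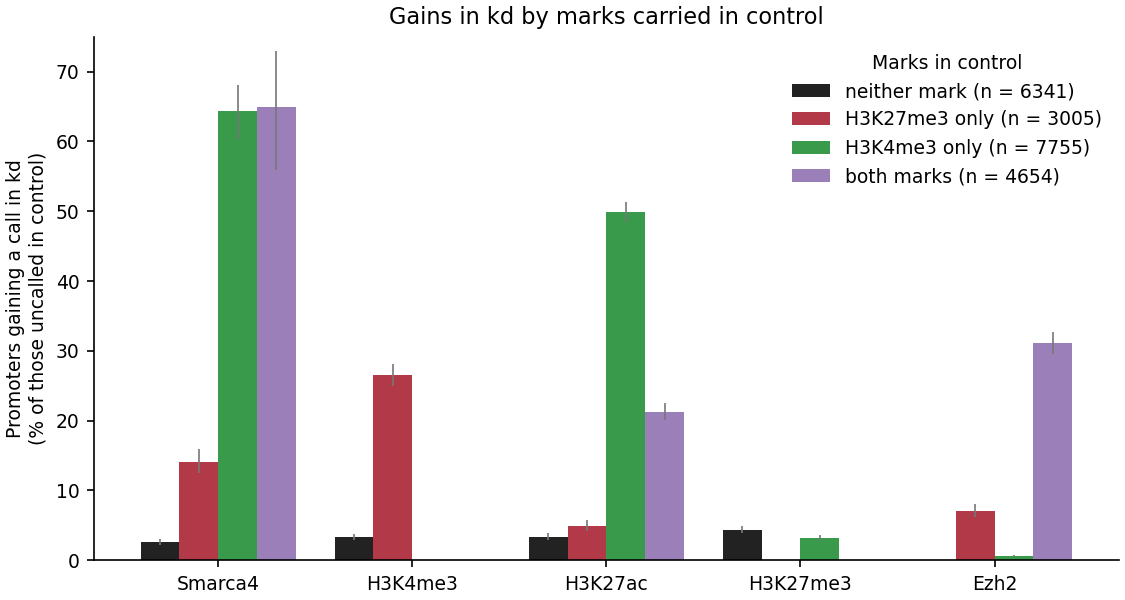
Share of promoters gaining a call in kd, in percent of the promoters uncalled in control (y axis), for each antibody (x axis) and each class of control marks (bar colours). Error bars are 95% Wilson intervals, and bars are missing for a mark that a class carries by definition. The class with neither mark has the lowest bar for Smarca4, H3K4me3, H3K27ac and Ezh2, but stands at 4.37% against 3.19% for H3K27me3.

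The choice of threshold can be read from the promoters next to it. The window of 58 members ended less than 200 bp from a control island. Of these, 13 were called for H3K4me3 and 6 for H3K27me3 in kd, and 21 for Smarca4. On the other side, 46 promoters had at most 200 bp of their window in control islands. Of these, 24 carried H3K4me3 and 22 H3K27me3 in control, while 12 and 5 did so in kd. The median member lay 21850 bp from the nearest control island. Within 1 kb of such an island, H3K27me3 and H3K4me3 were each gained at 30 of 244 members (12.3%). At 100 kb or more they were gained at 10 of 545 (1.83%) and 3 of 545 (0.550%).

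A member is defined by the outermost annotated start of its gene, which is not always the start in use. At 375 members (5.91%) another annotated start of the same gene carried H3K4me3 in control. Such genes made up 17 of the 149 members gaining Smarca4, 25 of 210 for H3K4me3, 40 of 205 for H3K27ac and 14 of 277 for H3K27me3. The chaperone gene Hsp90aa1, the corepressor gene Trim28 and the splicing regulator gene Hnrnpf are members of this kind.

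H3K27me3 was the mark most often gained at the deposited thresholds. This order turned with a stricter threshold in every list, which gave 341 gains of H3K4me3, 208 of H3K27ac and 173 of H3K27me3, and in the kd lists alone, with 136 of H3K4me3 and 116 of H3K27me3. The stricter control lists also changed the class, which then held 7029 promoters, so that the 341 gains are not counted over the same members. The 277 members shared 261 islands with a median width of 6000 bp, against 10000 bp at other promoters called in kd. The island covered the gene start at 213 members (76.9%) and reached a control island elsewhere at 61 (22.0%). The median −log10 of the SICER p-value was 17.4, against 90.8 at other promoters, so that most of these islands were among the weaker ones of the kd list. Over all promoters, 5872 of the 6396 called for H3K27me3 in kd were also called in control, so that the 90.8 describes mostly kept calls. Most gains were isolated, and 25 of the 277 members (9.03%) lay in 5 runs of at least 3 adjacent protein-coding members that gained the mark.

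The first run lies in the interferon cluster on chromosome 4. Type I interferons are the secreted antiviral signals of most cells, and their alpha genes form a tandem array. Of 26 interferon genes, 17 were members, 0 of these carried Smarca4, H3K4me3, H3K27ac or Ezh2 in either condition, and 8 gained H3K27me3. In control, an island at chr4:88771001-88813800 ended before the start of Ifna7. In kd the corresponding island ran from 88771201 to 88826600 and covered the starts of Ifna7 and Ifna11, and its end lay at −816 bp relative to the start of Ifna6. Both islands have a p-value listed as 0. Separate islands without a control counterpart covered the starts of Ifna5 (4400 bp, −log10 p of 24.6), Ifna4 (5000 bp, 27.9) and Ifna1 (5400 bp, 22.4). Ifnab gained an island of 7800 bp (−log10 p of 30.0) that reached a control island. Ifnk, which lies apart from the array and encodes the interferon of keratinocytes, gained one of 2800 bp (14.9). Not called in either condition were Ifna2, Ifna9, Ifna12, Ifna13, Ifna14, Ifna15 and Ifna16 at lower coordinates in the array, Ifne and the type II gene Ifng. The promoter words did not separate these sets, as AANNGAAA was present in each of the 7 alpha genes with and the 7 without a gain.

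The second run holds the Sp100 family genes Sp110 and Sp140, interferon-inducible nuclear body proteins, on chromosome 1. From 50 kb before the first to 50 kb after the last gene of the run, the control list held 0 H3K27me3 islands and the kd list 9. Sp110 and Sp140 lay under one island at chr1:85573601-85607400 (33800 bp, −log10 p of 50.8), together with G530012D18Rik. Gm10553 and A530032D15Rik shared an island of 29800 bp (40.8), and C130026I21Rik had one of 3200 bp (12.9). The part of the repeated gene copies in this region, where reads map to more than one place, was not tested. On chromosome 17, the pheromone receptor genes Vmn1r234, Vmn1r235, Vmn1r236 and Vmn1r237 and the zinc finger gene Zfp677 gained 5 islands. The widest measured 31000 bp at Vmn1r235 (−log10 p of 121). On chromosome 8, the epididymal genes Spag11b and Spag11a, the predicted gene Gm45826 and the antimicrobial beta-defensin genes Defb14 and Defb4 gained 3 islands, of 13400, 9600 and 13000 bp. The fifth run, of Olfr453, Olfr38 and Olfr452 on chromosome 6, had islands of 3200, 1400 and 5400 bp.

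**Figure D2:**
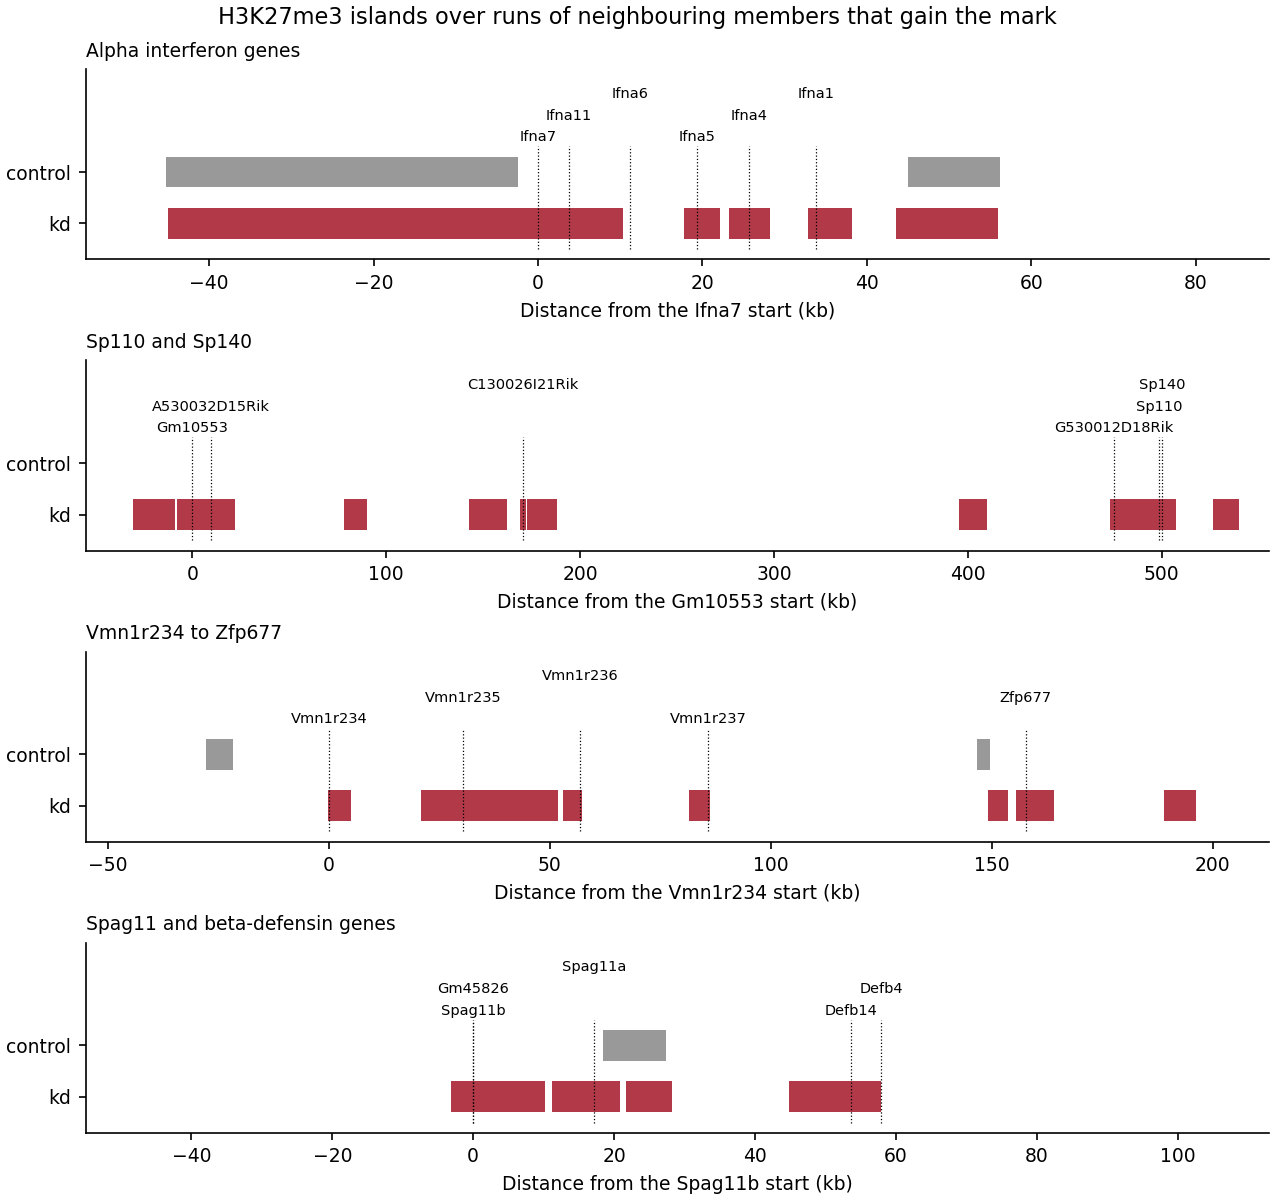
H3K27me3 islands of control (grey) and kd (red) along 4 loci, by distance in kb from the start of the first gene of the run (x axis). Dotted lines mark the starts of the members that gained the mark, and islands are drawn to scale up to 50 kb beyond the run. At the alpha interferon genes the kd island extends past the end of the control island and 3 separate islands follow, and the Sp110 and Sp140 locus has 9 islands in kd and 0 in control.

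Single gaining genes under strong kd islands of H3K27me3 included Ndn and Pqlc1. Ndn, the imprinted gene of necdin, lay under an island of 22800 bp (−log10 p of 198), and Pqlc1, a gene for a membrane transporter, under one of 12800 bp (130). Both islands reached a control island, so that their p-values also cover sequence with the mark in control. The window of Ndn lay 431 bp from a control island, and its gain call was lost in windows of 2 kb. That of Pqlc1 lay 1308 bp away, and its call was lost with every annotated start counted. Steap4, a metalloreductase gene, lost a Smarca4 peak (score of 133 in control) and gained an H3K27me3 island of 3600 bp (39.8) over its start. Altogether 13 of the 162 members that lost Smarca4 gained H3K27me3 (8.02%, 4.75 to 13.2%), as did 33 of the 353 that kept Smarca4 (9.35%, 6.73 to 12.8%). Among the 149 that gained Smarca4, 11 gained H3K27me3 (7.38%, 4.17 to 12.7%). The share was lower at members without Smarca4 in either list, with 220 of 5677 (3.88%, upper bound 4.41%). This upper bound lay below the intervals of members that lost or kept Smarca4, but within that of members that gained it. The reason for the difference was not tested. By chromosome, H3K27me3 was gained at 33 of 338 members on chromosome 14 (9.76%) and 21 of 217 on chromosome 8 (9.68%), and at 4 of 354 on chromosome 9 (1.13%). Over all promoters without H3K27me3 in control, the shares on these chromosomes had the same order, with 6.67%, 5.37% and 2.02%. On chromosome 14, 24 of these 33 were predicted genes with Gm symbols, which made up 149 of the 338 members there. In the first 20 Mb, a limit set after the values were seen, 20 of 75 such members gained the mark, and the median island there was 64.1% repeat-masked, that is, in lower case in the genome sequence. No Ezh2 peak was called in kd at any of the 277 members.

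Most H3K4me3 gains, 132 of 210, lay at members with Smarca4 in both conditions. Of the 353 members with Smarca4 in both conditions, these 132 made up 37.4% (32.5 to 42.6%). Of the 149 that gained Smarca4, 16 gained H3K4me3 (10.7%, 6.72 to 16.7%), and of the 162 that lost Smarca4, 7 did (4.32%, 2.11 to 8.65%). Of the 5677 members without Smarca4 in either list, 55 gained H3K4me3 (0.969%, 0.745 to 1.26%). Promoters with H3K27me3 alone in control had the same order, with 57.7%, 18.1%, 16.9% and 1.59%. Members with Smarca4 in both conditions had a median CpG ratio of 0.329, and those without Smarca4 one of 0.149. With a ratio under 0.2, H3K4me3 was gained at 8 of 66 members with Smarca4 in both conditions (12.1%) and at 36 of 3791 without (0.95%). With a ratio of at least 0.4 these were 66 of 115 (57.4%) and 5 of 221 (2.26%).

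**Figure D3:**
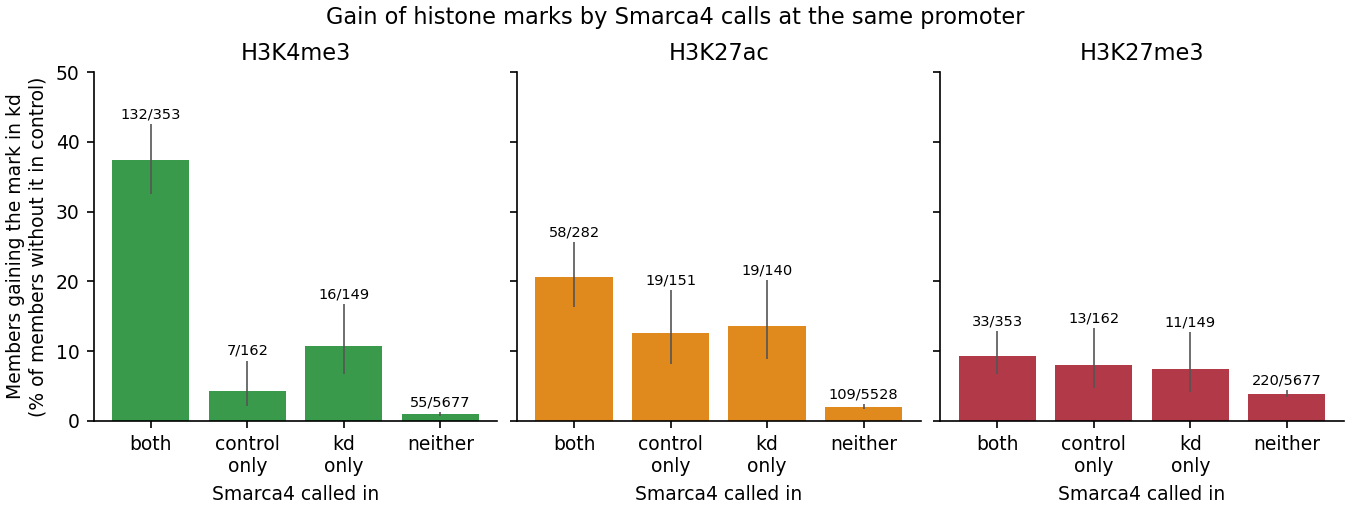
Share of members gaining H3K4me3, H3K27ac or H3K27me3 in kd (y axis, percent of members without that mark in control) by the conditions in which Smarca4 was called at the same promoter (x axis). Numbers over the bars are members gaining out of members without the mark, and error bars are 95% Wilson intervals. For H3K4me3 the bar of members with Smarca4 in both conditions stands at 37.4% and that of members without Smarca4 at 0.969%.

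The strongest H3K4me3 gains were wide islands that reached control islands outside the window. The 5 named by rank all have a p-value listed as 0. Hsp90aa1 lay in an island of 13400 bp in kd, and its Smarca4 score was 164 in control and 246 in kd. Plcxd1, a phospholipase-like gene, lay in an island of 12200 bp, with Smarca4 in both conditions. Its strongest Smarca4 peaks lay apart (scores of 239 in control and 116 in kd), but the kd peak overlapped another control peak. Tnfsf13, which encodes the B-cell cytokine April, lay in an island of 12200 bp, with H3K27ac and Smarca4 in both conditions. Its strongest Smarca4 peaks in control (171) and kd (131) lay apart, but each overlapped another peak of the other condition. Tctex1d4, a dynein light chain gene, had an island of 7200 bp that began 807 bp downstream of its start. The island near Olfr834 was 98% repeat-masked. These 5 belong to 39 of the 210 gains that reached a control island, whereas the median gain was weaker, with a −log10 p of 24.6 against 190 at other promoters. Over all promoters, 12238 of the 13244 called for H3K4me3 in kd were also called in control, so that the 190 describes mostly kept calls. The island covered the start at 145 of the 210 members (69.0%). Gains at single starts included Apoc1 (3400 bp, −log10 p of 65.6), Gdf15, a stress-induced cytokine gene (3800 bp, 120), and the serine protease gene Prss32 (1800 bp, 68.6).

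H3K27ac gains overlapped those of H3K4me3 but were poorer in unique sequence. Both marks were gained at 47 members, that is 22.4% of the H3K4me3 gains and 22.9% of the H3K27ac gains. Among them were Tctex1d4 and its neighbour Btbd19, which share an island of 10200 bp (−log10 p of 68.4), and Apoc1 (4000 bp, 37.4). Apoc1 carried Smarca4 in both conditions, with a kd score of 211. The neighbouring apolipoprotein genes Apoc4 and Apoc2 shared an island of 4600 bp (12) with Gm44805. Apolipoproteins carry blood lipids, and 4 of their 15 members gained H3K27ac, at 3 of them in islands that were at least 50% repeat-masked. Of promoters uncalled in control, 3.36% of members and 20.2% of all gained H3K27ac, and a count of 4 does not set the family apart. The island with the lowest p lay near Trim28, where it began 687 bp downstream of the annotated start (27200 bp, p listed as 0). Among members with a gene name of their own, it was followed by Iqcn (13800 bp, 154), the transcription cofactor gene Uri1 (13600 bp, 98.2) and Fcgrt, the neonatal Fc receptor gene (11200 bp, 73.1). Each of these islands reached a control island. Those of Iqcn and Fcgrt lay upstream of the start, and that of Fcgrt was 53.8% repeat-masked. The Iqcn call was lost with an overlap of at least 200 bp and in windows of 500 bp and 2 kb. The median gain was weaker, with a −log10 p of 10.8, and the island covered the start at 68 of the 205 members (33.2%). At 104 of the 205 members (50.7%) the island was at least 50% repeat-masked, against 4.98% at other promoters called in kd and 73.9% of the whole kd list. This share was 20.0% at members gaining H3K4me3 (whole kd list 49.7%), 12.6% for H3K27me3 (6.79%) and 8.72% for Smarca4 (19.6%).

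Gained Smarca4 peaks were narrow and mostly of low score. Their median score was 49 (quartiles 32 and 62), against 168 at other promoters called in kd. Over all promoters, 13116 of the 13925 called for Smarca4 in kd were also called in control, so that the 168 describes mostly kept calls. Gained peaks at members had a median width of 262 bp. The peak covered the start at 55 of the 149 members (36.9%), and 1 of them reached a control peak. The highest scores among members with a name of their own belonged to Dnah7c, an axonemal dynein gene (150), Ppp2r3d, a phosphatase subunit gene (117), CN725425 (111), Ssc4d, a scavenger receptor gene with a score just above 100, and Mid1ip1, a regulator of lipid synthesis (92). At Ppp2r3d, Ssc4d and Mid1ip1 another annotated start carried H3K4me3 in control. Fkbp6, a germline gene (77), and the membrane protein genes Ms4a10 and Ms4a4d (74 each) followed further down.

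Smarca4 was also lost from the class. Of the 515 members called in control, 162 lost the call (31.5%, 27.6 to 35.6%), against 4.31% of all promoters called in control. Control peaks at members had a median score of 76, against 170 at other promoters. At scores of 100 or more, 15 of 169 members lost the call (8.88%, 5.45 to 14.1%), as did 0.748% (0.596 to 0.938%) of other promoters. At scores under 50, the shares were 54.8% (46.1 to 63.2%) and 18.1% (15.7 to 20.9%). Among members with a gene name of their own, the strongest lost peaks lay at Oas1a, an interferon-induced antiviral gene (171), the keratin gene Krt222 (153) and Steap4. The log2 ratio of gains (149) to losses (162) was −0.12, against 0.45 over all promoters, and it changed sign with lists of equal length (0.18) and with every annotated start counted (0.011). For H3K27ac, 88 of 240 members lost the call (36.7%, 30.8 to 42.9%), against 11.5% of all promoters called in control. The log2 ratio of gains to losses was 1.22, against 3.20 over all promoters. It was 0 with a stricter threshold in the kd lists, 0.49 with lists of equal length and 0.66 at least 5 kb from control islands. Strong lost H3K27ac islands were those at Mme, the gene of the peptidase neprilysin (−log10 p of 58.3), and F13b, a clotting factor gene (52.8). Mme also lost a Smarca4 peak with a score of 71.

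Ezh2 was rarely called. It was called at 10 members in control and 2 in kd, and 9 of the 10 lost the call, against 3.96% of all promoters called in control. All 9 lost peaks and the 1 gained peak were at least 50% repeat-masked, as were 45.9% of the whole control list and 3.24% of the whole kd list. With genes lacking a name of their own left out, the strongest lost peaks lay near Coil, the gene of the Cajal body protein coilin (score of 131), Olfr776 (131) and Hemgn, a gene of blood progenitors (107). The gained peak ended at −766 bp relative to the start of Gm6526 (score of 105).

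CpG content separated the gains. The median CpG ratio was 0.334 at members gaining H3K4me3 and 0.308 at members gaining Smarca4. It was 0.199 at members gaining H3K27ac and 0.163 at members gaining H3K27me3, close to the 0.160 of the whole class. Smarca4 was gained at 3 of 1558 members with a ratio under 0.1 (0.193%, 0.0655 to 0.565%) and at 44 of 265 with a ratio of at least 0.4 (16.6%, 12.6 to 21.6%). H3K4me3 went from 14 of 1573 (0.890%) to 79 of 400 (19.8%, 16.1 to 23.9%). H3K27ac went from 25 of 1532 (1.63%) to 26 of 377 (6.90%), with a lower value of 2.05% between ratios of 0.3 and 0.4. H3K27me3 was gained at 4.20% (3.31 to 5.30%) in the lowest and 6.25% (4.27 to 9.06%) in the highest bin, and these intervals overlap. The GC box word GGGCGG followed the same order. It was present at 36.2% of members gaining H3K4me3, 22.8% for Smarca4, 16.1% for H3K27ac, 9.75% for H3K27me3 and 5.55% of members without any region.

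**Figure D4:**
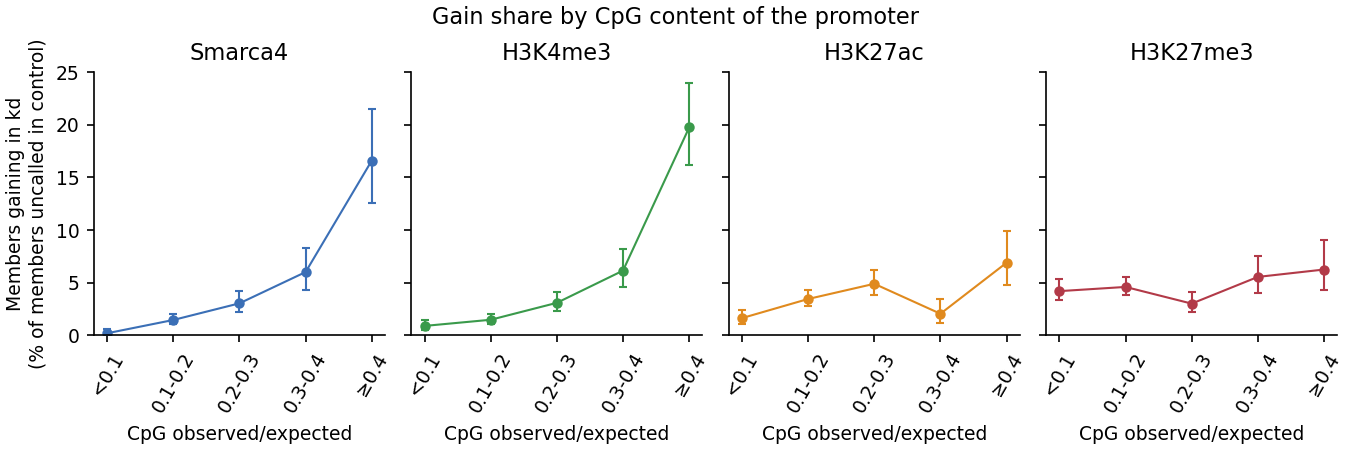
Share of members gaining each antibody in kd (y axis, percent of members uncalled in control) by the ratio of observed to expected CpG over 1 kb around the start (x axis, 5 bins). Error bars are 95% Wilson intervals. The share rises to 16.6% for Smarca4 and 19.8% for H3K4me3 in the highest bin and stays between 3.01% and 6.25% for H3K27me3.

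The 8 members that gained 3 antibodies fell into 2 kinds, and they are named although their values were seen first. Gsto2 (glutathione transferase), Ttc38, Mfsd9 and the zinc finger gene Zfp114 gained Smarca4 and H3K4me3 with another mark, at CpG ratios between 0.43 and 0.73. Gsto2 had a Smarca4 score of 62, an H3K4me3 island of 800 bp (−log10 p of 35.1) and an H3K27me3 island of 16000 bp (24.5) that began 867 bp downstream of the start. Ttc38 had a Smarca4 score of 62, H3K4me3 over 1600 bp (31.1) and H3K27ac over 1800 bp (9.81). Mfsd9 had a Smarca4 score of 28, H3K4me3 over 800 bp (32.6) and H3K27me3 over 3600 bp (12.3). Zfp114 had a Smarca4 score of 46, H3K4me3 over 800 bp (20.2) and H3K27ac over 2600 bp (6.07). In Lce3c (skin barrier), Ifi27l2b, Gm3460 and Gm6526 no Smarca4 was gained, CpG ratios were between 0.02 and 0.12, and the H3K4me3 and H3K27ac islands were between 95.7% and 99.8% repeat-masked. H3K4me3 and H3K27me3 were gained together at 16 members, among them Gsto2, Mfsd9, the cold receptor gene Trpm8, the gap junction gene Gjb5 and the centromere gene Hjurp.

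The gene families were taken from 49 lists of symbols, which held 2560 members (40.4%). Of these lists, 7 were added after the values were seen. They are those of Prss, Trim, Speer, Skint and Btbd35 genes, secretoglobins and exocrine gland peptides. Families of genes share sequence and position, so that their members are not independent. Olfactory receptors, each expressed in few neurons of the nose, were the largest family, with 1099 of 1135 genes in the class. Of these, 37 gained H3K27me3 (3.37%, against 4.37% of the class), 16 H3K27ac (1.49%, against 3.36%), 8 H3K4me3 (0.728%, against 3.31%) and 2 Smarca4 (0.182%, against 2.56%). The H3K27ac islands were at least 50% repeat-masked in 15 of the 16 and the H3K4me3 islands in 8 of the 8. The vomeronasal receptors of type 1 had 206 of 209 genes in the class and gained H3K27me3 at 7, H3K27ac at 5 and H3K4me3 at 2. Type 2 receptors were members with 122 of 122 genes and gained these marks at 3, 2 and 1. Trace amine receptors (15 of 15 genes), prolactins (24 of 25), UDP-glucuronosyltransferases (20 of 21), Skint genes (11 of 11) and Btbd35 genes (27 of 30) were almost wholly in the class and gained none of the 5 antibodies.

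Other families had both gaining and silent members. Beside the interferons with 8 of 17 H3K27me3 gains, the interferon-inducible Gbp and Ifi genes gained at least 1 antibody at 6 of 29 members (20.7%), against 11.5% of all members. These include Gbp3 (Smarca4 score of 42, H3K27me3 −log10 p of 10.6), Gbp2 and Ifi35. Only 38 of 413 zinc finger genes were members, and 10 of these gained an antibody. H3K4me3 was gained at 7 (18.4%), against 3.31% of members and 10.8% of all promoters without it in control. An example is Zfp454 (14.8, with a Smarca4 score of 68). Among Prss serine protease genes, 6 of 23 members gained an antibody, 3 of them Smarca4. Kallikreins gained H3K27me3 at 2 of 16 members, Klk11 (10800 bp, 85.9) and Klk13 (4200 bp, 10.6), and both carried Smarca4 in both conditions. Solute carriers gained an antibody at 14 of 91 members and cytochromes P450 at 5 of 71, 3 of them Smarca4, among them Cyp2j6 (57) and Cyp2c23 (46). Keratin-associated proteins gained one at 3 of 45, defensins at 4 of 59, serpins at 1 of 53 and taste receptors at 1 of 37. Of the 4 germline genes in the class, Fkbp6 gained Smarca4.

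Most families with any gain had between 1 and 3 members gaining H3K27me3, which 4.37% of the class gained, and counts this small do not set a family apart. Carboxylesterases, enzymes of the liver and gut, gained it at 2 of 14 members, Ces2b (6000 bp, −log10 p of 20.9) and Ces2c (14400 bp, 12.6). Speer genes gained it at 2 of 10, Speer4a (10400 bp, 17.3) and Speer4c (25800 bp, 27.5). Keratins gained it at 2 of 20, Krt31 (7200 bp, 14.3) and Krt40 (5000 bp, 12.8). Single members were the adult beta-globin gene Hbb-bs (4200 bp, 14.8), the muscle myosin gene Myh1 (5800 bp, 11.6), the bitter taste receptor gene Tas2r144 (6800 bp, 26.3), the GABA receptor subunit gene Gabra3 (2000 bp, 17.2) and the lectin receptor gene Klre1 (5000 bp, 33.1). None of these had Smarca4 in either condition. A member of the Cd antigens, Cd38, differed in this respect, with Smarca4 scores of 257 in control and 111 in kd and a new H3K27me3 island of 3200 bp (11.7).

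Members of families that gained H3K4me3 with Smarca4 in both conditions included 4 named by rank. The calcium channel subunit gene Cacng8 gained an island of 3400 bp (−log10 p of 60.3), with H3K27ac in both conditions and separate Smarca4 peaks in control (44) and kd (111). Kcnip3, which encodes a potassium channel partner, gained one of 1200 bp (20.7), with Smarca4 scores of 87 and 128. Trim34a gained one of 1200 bp (18.3), with Smarca4 scores of 64 and 49. Cd59b, a gene of complement regulation, gained H3K4me3 (1800 bp, 24.3) and H3K27ac (2600 bp, 11.2), with Smarca4 scores of 58 and 28. At Kcnip3 the Smarca4 score was higher in kd and at Trim34a and Cd59b it was lower, each at overlapping peaks. Without Smarca4, the islands near Olfr479, Vmn1r68, Esp24, Esp3 and Obox6 were at least 88.5% repeat-masked and none of them covered the start.

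**Figure D5:**
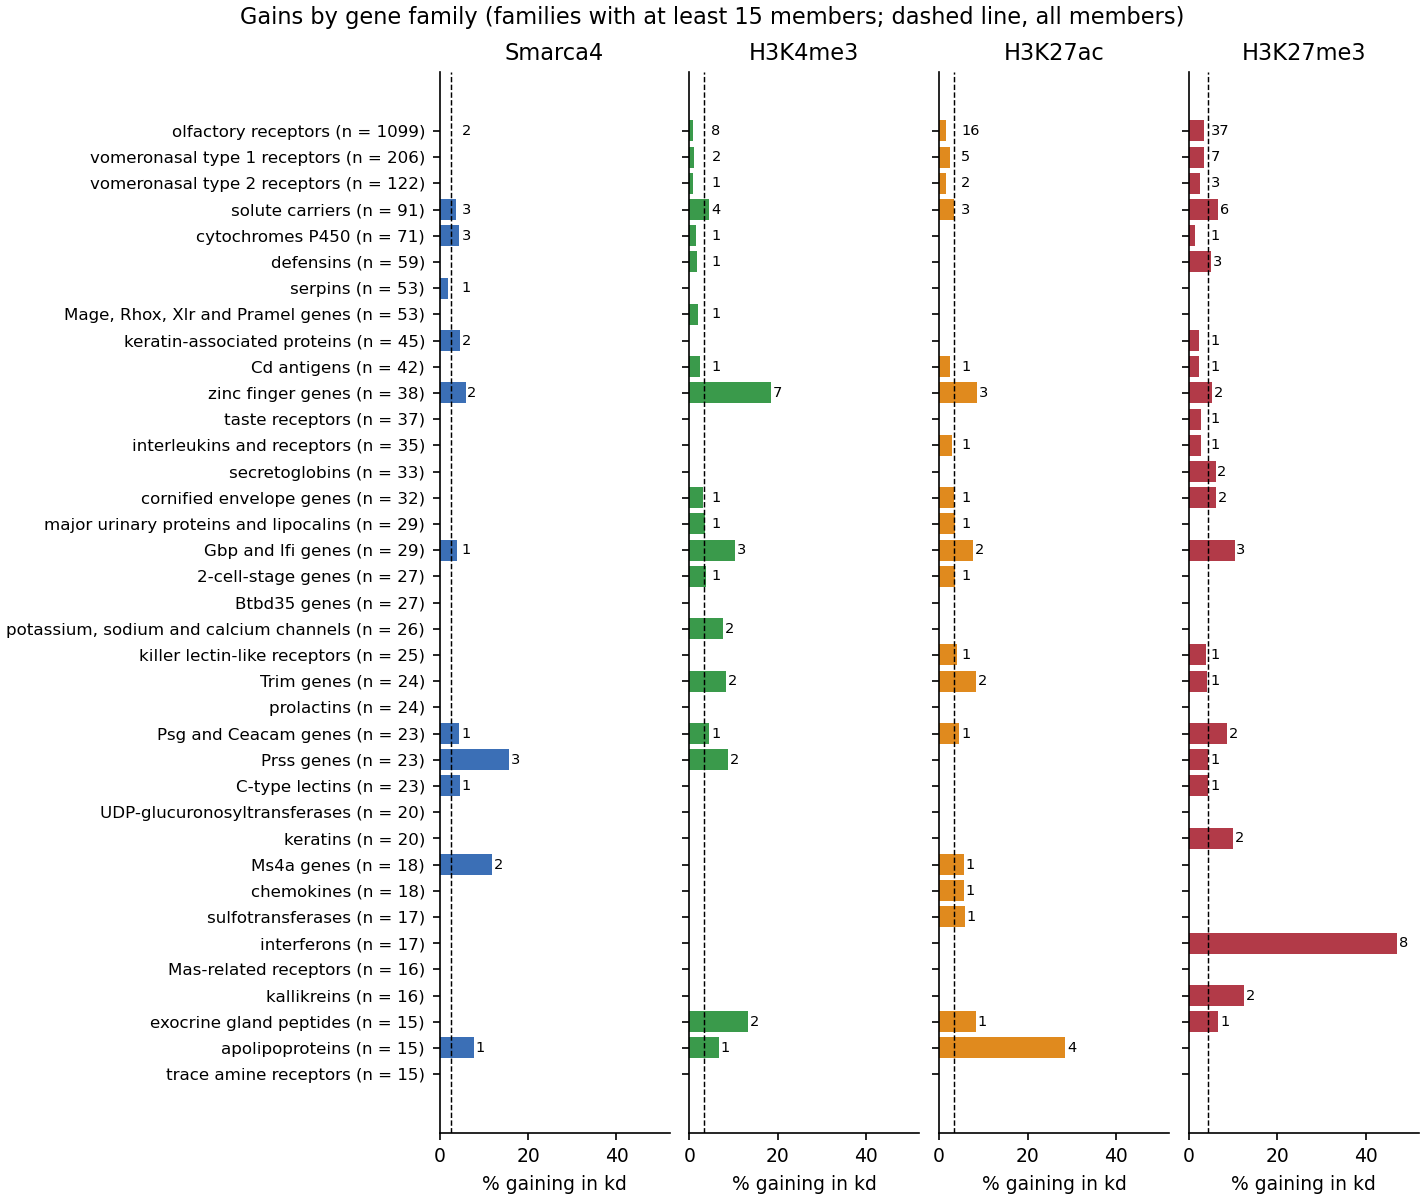
Share of members gaining Smarca4, H3K4me3, H3K27ac or H3K27me3 in kd (x axes, percent of members uncalled in control) for each family with at least 15 members (y axis, n members). Numbers at the bars count gaining members, and dashed lines show the share over all members. Interferons stand at 8 members for H3K27me3, apolipoproteins at 4 for H3K27ac and zinc finger genes at 7 for H3K4me3.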

How the data were processed

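ChIP-seq of 5 antibodies was available as 10 peak lists. Per the methods, the authors aligned trimmed reads to mm10, kept unique alignments (samtools 1.9), and called Smarca4 and Ezh2 with MACS2 and the histone marks with SICER. The deposited score of each Smarca4 and Ezh2 peak is the MACS2 score, and the deposited p-value of each island is the SICER p-value on which the authors filtered. Neither is scaled between libraries. The methods and the titles of the 4 background samples name input as background, whereas other labels of these samples and a figure legend of the paper name IgG. The methods state that Smarca4 and H3K27me3 were processed by a company and the other antibodies by a core facility, whereas the labels name the core facility for every library.

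Windows of 1000 bp either side of GENCODE M21 gene starts were overlapped by at least 1 bp (Python 3, numpy and pandas, checked against bedtools 2.31.1 and on simulated lists). A gain is a call in kd alone and a loss a call in control alone. Regions with at least 50% lower-case bases were called repeat-masked. RefSeq promoters within 1 kb of the start were found for 3324 members. The members, the family lists and the rules were chosen with earlier results of these data known, and 7 family lists were added after the values were seen. Named are, among members with a gene name of their own, the 5 strongest gains per antibody, the 3 strongest losses and up to 2 gaining members per family. One gene that this rule names is not reported here. The interferon members, the runs of neighbours and other genes were added after their values were seen. No test was made, since each group is 1 library.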

Additional observations from a re-analysis of the deposited data

How the results depend on the processing

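No paired analysis was possible because each antibody and condition has 1 library, and for the same reason no replicate could be left out. The counts of members and of gains were recomputed under 12 alternatives. The class held 6341 promoters and stayed within 1.5 times this number in each of them. A stricter threshold (score of 50, −log10 p of 20, or 10 for H3K27ac) in the kd lists alone left gains of 63 for Smarca4, 136 for H3K4me3, 116 for H3K27ac and 116 for H3K27me3, and log2 ratios of gains to losses of −1.97 for Smarca4 and 0 for H3K27ac. With the stricter threshold in every list the class held 7029 promoters, the H3K4me3 gains numbered 341, the H3K27me3 gains 173 and the Smarca4 ratio was −0.46. At least 5 kb from control islands, 113 H3K4me3 and 115 H3K27ac gains remained in the count, with an H3K27ac ratio of 0.66. Without repeat-masked regions there were 119 H3K27ac gains. Lists of equal length gave H3K27ac a ratio of 0.49. The Smarca4 ratio changed sign with every annotated start (0.011) and with lists of equal length (0.18), so no direction can be read from it. The single Ezh2 gain became 0 in windows of 500 bp and without repeat-masked regions, and 2 in windows of 2 kb and with lists of equal length. Of 21 gain calls named by rank, 5 were kept in every alternative in which the gene could be evaluated, those of Dnah7c, CN725425, Tnfsf13, Ifna7 and Ifna11. With every annotated start counted, 13 of the 21 were kept. The cause of these changes was not tested. The read count of each library is not given in the files, so a gain of a weak region cannot be told from a difference in depth.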
